A study of Homo sapiens with 4 samples.

Results

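The zinc finger genes of chromosome 19 were taken as the protein-coding genes of GENCODE version 29 (build GRCh38) on that chromosome whose symbol is ZNF followed by digits. There were 240 of them among the 58825 gene rows of each library, and all had a row. They were followed in LoVo, a colorectal adenocarcinoma cell line whose MET receptor tyrosine kinase is uncleaved and active without its ligand. MET+ cells were LoVo cells labelled as GFP control with genotype WT, and MET-KO cells were LoVo cells in which MET was edited with CRISPR/Cas9. Both were grown in DMEM with fetal bovine serum and antibiotics and carried no other labelled treatment. Each group had 2 libraries that the labels call biological replicates. Edited cells were picked as single clones and chosen by Western blot, and the sources used here do not say whether both MET-KO libraries came from the same clone, so that the p-values measure the spread between these libraries only.

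Most of these genes encode C2H2 zinc finger proteins, in which each finger folds around a zinc ion and contacts a few bases of DNA. Many also carry a KRAB domain at the amino end, which binds TRIM28 and through it brings the histone methyltransferase SETDB1 and HP1 proteins to chromatin. The family grew by tandem duplication, so that its genes lie in clusters along chromosome 19, and many members are known to bind and silence transposable elements. The genes of the clusters are themselves known to be packed in repressive chromatin in many cell types.

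RNA was sequenced with the QuantSeq 3' mRNA method, which reads 1 fragment near the poly(A) end of a transcript, so that long transcripts give no more counts than short ones. The depth was 8429142 and 10286552 counts in the MET+ and 10137583 and 10228991 counts in the MET-KO libraries. A count of 0 allows up to 3 counts, or 0.292 to 0.356 CPM (counts scaled to a common library total), counting error only. The correlation of log2 CPM across genes was 0.985 and 0.990 within the groups and 0.827 to 0.832 between them. MET itself was lower in MET-KO cells (2794 and 3272 counts against 861 and 965, log2 fold change -1.96). Reads at the 3' end of a transcript do not cover an edited coding site and so do not check the edit. The chromosomes had median log2 fold changes from -0.51 (chromosome 14) to 0.50 (chromosome 7), and chromosome 19, with 873 tested genes, had 0.01. Of 12 markers of the colorectal epithelium, EPCAM, KRT8, KRT18 and KRT19 were abundant in every library. CDH17 and CEACAM5 were at 0 counts in both MET-KO libraries, KRT20 at 0 in both MET+ libraries and CDX1 at 0 in all. By edgeR 2 of the 11 tested markers were higher and 8 lower, against 27.2% and 26.9% of all tested genes. The higher ones were KRT20 and CDX2, and CDX2 rose from a mean of 65.0 to 134.0 CPM (log2 fold change 1.04). EPCAM, KRT18, KRT19 and CDH1 were among the lower, and VIL1 and LGALS4 fell to at most 3 counts in each MET-KO library. The part of these markers in the results on the zinc finger genes was not tested. The summed levels of the fibroblast, immune and endothelial markers were at most 4.24, 1.64 and 0.924 CPM in any library.

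6 promoters are printed from the RefSeq promoter table (build GRCh38.p14, 250 bases before to 50 after the start of the gene, 5′ to 3′ on the strand of the gene). Their part in the differences between the groups was not tested. ZNF563, ZNF836 and ZNF347 had at most 3 counts in each MET+ library and over 10 in each MET-KO library. The same held for ZNF738, ZNF506 and ZNF253, which had no match in the promoter table. ZNF91 and ZNF551 showed the reverse, and ZNF568 is 1 silent gene of cluster 6, in which nearly all members were silent. Capitals mark the string CCGGAAG, the core of sites bound by ETS factors, and GGGCGG, the GC box bound by SP factors, each read on either strand.
ZNF563 promoter (chr19:12333584-12333883, minus strand): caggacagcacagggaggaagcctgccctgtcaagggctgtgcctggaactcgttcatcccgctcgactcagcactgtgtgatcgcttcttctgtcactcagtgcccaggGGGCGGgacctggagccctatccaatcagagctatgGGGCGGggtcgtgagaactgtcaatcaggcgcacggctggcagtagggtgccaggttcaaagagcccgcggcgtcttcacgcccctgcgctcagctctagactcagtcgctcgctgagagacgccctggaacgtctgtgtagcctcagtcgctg
ZNF836 promoter (chr19:52171572-52171871, minus strand): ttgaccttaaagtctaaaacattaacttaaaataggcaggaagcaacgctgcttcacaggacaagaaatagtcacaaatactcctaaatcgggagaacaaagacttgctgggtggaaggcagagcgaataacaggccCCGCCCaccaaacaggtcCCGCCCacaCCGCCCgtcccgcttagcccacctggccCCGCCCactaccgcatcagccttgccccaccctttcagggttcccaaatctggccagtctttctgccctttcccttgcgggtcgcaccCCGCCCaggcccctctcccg
ZNF347 promoter (chr19:53159004-53159303, minus strand): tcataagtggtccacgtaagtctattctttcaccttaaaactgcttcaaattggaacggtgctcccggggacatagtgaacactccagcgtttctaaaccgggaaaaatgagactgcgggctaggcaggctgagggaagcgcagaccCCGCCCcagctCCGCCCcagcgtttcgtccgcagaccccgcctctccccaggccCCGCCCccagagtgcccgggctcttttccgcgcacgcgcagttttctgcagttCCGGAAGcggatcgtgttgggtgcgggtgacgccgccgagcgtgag
ZNF91 promoter (chr19:23395422-23395721, minus strand): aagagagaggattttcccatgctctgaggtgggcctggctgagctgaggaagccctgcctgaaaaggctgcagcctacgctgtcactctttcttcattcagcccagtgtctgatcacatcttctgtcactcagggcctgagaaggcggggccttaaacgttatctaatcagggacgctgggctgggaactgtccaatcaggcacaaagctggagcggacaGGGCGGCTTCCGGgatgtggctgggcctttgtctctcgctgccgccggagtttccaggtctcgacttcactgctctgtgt
ZNF551 promoter (chr19:57681727-57682026, plus strand): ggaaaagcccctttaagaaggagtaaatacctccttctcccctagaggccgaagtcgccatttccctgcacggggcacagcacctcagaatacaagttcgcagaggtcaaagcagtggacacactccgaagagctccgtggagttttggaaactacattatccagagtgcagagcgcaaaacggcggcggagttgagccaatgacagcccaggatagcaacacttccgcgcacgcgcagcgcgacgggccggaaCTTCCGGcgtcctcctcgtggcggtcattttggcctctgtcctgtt
ZNF568 promoter (chr19:36916082-36916381, plus strand): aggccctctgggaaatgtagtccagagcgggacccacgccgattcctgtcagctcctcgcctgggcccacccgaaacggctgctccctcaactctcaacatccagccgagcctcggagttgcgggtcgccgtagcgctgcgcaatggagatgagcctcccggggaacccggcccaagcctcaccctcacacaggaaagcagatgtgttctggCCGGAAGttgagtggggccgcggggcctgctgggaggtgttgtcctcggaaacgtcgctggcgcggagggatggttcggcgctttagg
These promoters held 11 (ZNF91) to 27 (ZNF347) CG dinucleotides. The ETS core was found once each in ZNF347, ZNF91, ZNF551 and ZNF568 and was not found in ZNF563 and ZNF836, whereas ZNF836 held 5 GC boxes, ZNF347 held 3, ZNF563 held 2 and ZNF91 held 1.

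A gene was called off in a group when it had 3 counts or fewer in both of its libraries. By that measure the zinc finger genes of chromosome 19 were silent more often than protein-coding genes at large. Of the 240 genes, 109 were on in both groups and 109 (45.4%) were off in both, against 34.2% of all 19916 protein-coding genes. Among the off genes, 87 had no count in any library. Of the 1232 other protein-coding genes of chromosome 19, 35.4% were off in both groups, and of the 235 ZNF genes of other chromosomes, 14.04%. The remaining 22 members were switched between the groups. Of these, 15 (6.25%) were off in MET+ cells only, against 3.79% of all protein-coding genes, and 7 (2.92%) were off in MET-KO cells only, against 2.32%. Among the other protein-coding genes of chromosome 19 these shares were 5.11% and 2.92%. In RNA from a whole culture, fewer cells that express a gene and less RNA per cell cannot be told apart. The summed level of the members depended on the scaling. After TMM scaling of the library totals, as used for single genes, it was 1123 and 1177 CPM in MET+ and 1131 and 1121 CPM in MET-KO libraries. By library totals alone it was 1102 and 1115 against 1138 and 1190 CPM. These sums weigh the most abundant members most.

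Members less than 1 Mb from their neighbour were joined, which gave 9 clusters of at least 5 genes that held 231 of the 240 members, numbered along the chromosome. Cluster 6, from 36.18 to 37.82 Mb, was the most silent. Of its 24 members, 21 were off in both groups, and 18 of these had 0 counts in all 4 libraries. The 21 genes together received 0 and 1 counts in MET+ and 0 and 3 in MET-KO libraries. The members on in this cluster were ZNF565 (26 and 23 counts in MET+, 14 and 15 in MET-KO), ZNF146 (686 and 810 against 888 and 890) and ZNF383 (14 and 8 against 17 and 28). None of these 3 was called between the groups by edgeR, with adjusted p of 0.0634, 0.852 and 0.186. ZNF146 encodes a protein made almost only of zinc fingers, and it was among the 5 members with the highest level. Of the 8 other protein-coding genes within the span, 7 were also off in both groups. Such genes were off as often in cluster 8 (14 of 16), where 33.3% of members were, and in 60.5% of cases over all cluster spans.

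Silent members lay side by side in other clusters too. There were 8 runs of at least 5 neighbouring members off in both groups, with 66 genes in all. In cluster 4, from 19.67 to 24.13 Mb, a run of 8 genes from ZNF93 to ZNF85 had 1 count in total, and a run of 12 from ZNF43 to ZNF724 had 0 counts in every library. Cluster 6 was made of a run of 12 genes and a run of 9 on either side of ZNF383. In cluster 9, from 55.48 to 58.48 Mb, 8 genes from ZNF582 to ZNF264 had 3 counts in total, all in 1 MET-KO library, and 6 genes from ZNF773 to ZNF134 had 0. At the other end of the range, all 5 members of cluster 5 (34.68 to 34.96 Mb) were on in both groups, as were 12 of the 15 of cluster 2 (7.07 to 9.79 Mb).

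**Figure D1:**
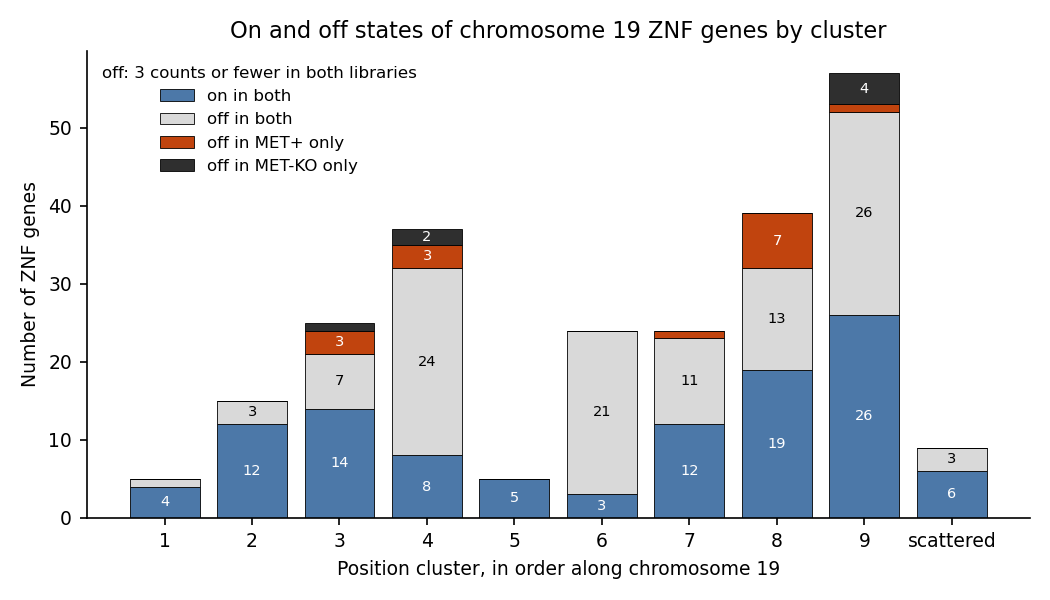
Number of chromosome 19 ZNF genes (vertical axis) in each of 9 position clusters and among the scattered members, split by on and off state, where off is 3 counts or fewer in both libraries of a group. Cluster 6 holds 21 silent genes of 24, cluster 8 holds 7 of the 15 genes off in MET+ cells only, and cluster 9 holds 4 of the 7 genes off in MET-KO cells only.

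Next, 6 genes were off in MET+ cells and had at least 10 counts in each MET-KO library. ZNF738 and ZNF506 had the highest counts among them. ZNF738 (ENSG00000172687, chromosome 19, 21358930 to 21379302) had 0 and 0 counts in MET+ and 60 and 56 in MET-KO libraries, or 5.52 ± 0.514 CPM (SD, n = 2). ZNF506 (chromosome 19, 19785839 to 19821751) had 0 and 0 counts against 32 and 64, or 4.52 ± 1.95 CPM (SD, n = 2). Its neighbour ZNF253 (19865886 to 19894674) had 0 and 0 counts against 17 and 24, or 1.94 ± 0.384 CPM (SD, n = 2). The mean MET-KO levels of these 3 genes were 16.5-fold, 13.5-fold and 5.78-fold over the floor of 3 counts per library in the MET+ group. These bounds take the mean of the MET-KO libraries as it stands and do not cover its spread. All 3 genes lie in cluster 4. These genes were picked by their on and off counts, so that no p-value is given for them or for the other strongly switched genes.

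The other 3 were ZNF836, ZNF347 and ZNF563. In cluster 8 (51.57 to 53.58 Mb), ZNF836 (52153864 to 52171643) had 1 and 0 counts in MET+ and 25 and 29 in MET-KO libraries, a ratio of 46.2 with a counting interval from 7.95 to 1858. ZNF347 (53124072 to 53159075) of the same cluster had 1 and 1 counts against 21 and 23, a ratio of 18.8 (4.91 to 160). In cluster 3 (11.48 to 12.64 Mb), ZNF563 (12317477 to 12333720) had 3 and 0 counts against 27 and 20, a ratio of 13.4 (4.31 to 67.3). These ratios rest on very few MET+ counts, as the width of their 95% exact intervals shows. The genes were picked by these same counts, so that intervals above 1 give no support for a difference. The intervals pool the 2 libraries of a group and cover counting error only. Leaving out 1 MET+ library moved the fitted log2 fold change of ZNF563 from 3.64 to 2.58 or 7.53 and that of ZNF836 from 5.23 to 4.26 or 7.72. Of the 6 proteins, 5 carry 8 to 24 fingers in their longest reading frame, whereas that of ZNF738 has 137 residues, a match to the KRAB core and no match to the finger pattern.

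The change ran the other way in 2 genes. ZNF91 (ENSG00000167232, 23304991 to 23395560, cluster 4), which encodes a repressor known to bind SVA retrotransposons, had 32 and 21 counts in MET+ (3.01 ± 1.21 CPM, SD, n = 2) and 0 and 0 in MET-KO libraries. Its mean MET+ level was 10.6-fold over the floor of 3 counts per library in the MET-KO group. ZNF551 (57681969 to 57717301, cluster 9) had 28 and 24 counts (2.92 ± 0.651 CPM, SD, n = 2) against 0 and 0, and its mean MET+ level was 10.25-fold over that floor. Neither bound covers the spread between the MET+ libraries. ZNF91 opens the last 5 members of cluster 4, which run to ZNF254 and together held 43 and 26 MET+ counts and no MET-KO count. Most of these counts were those of ZNF91 itself. ZNF254 supplied 4 and 4, and ZNF675, ZNF681 and ZNF726, which were off in both groups, supplied at most 3 per library. ZNF726 shares end sequence with ZNF91.

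A further 14 members crossed the limit of 3 counts at levels too low for the test. In cluster 8, ZNF880 had 0 and 0 MET+ counts against 5 and 5 in MET-KO libraries, and ZNF665 had 0 and 0 against 6 and 11. ZNF610, ZNF528 and ZNF320 were off in MET+ cells but reached over 3 counts in 1 MET-KO library only, with 11, 5 and 5. The 7 genes of cluster 8 that were off in MET+ cells lay between 52153864 and 53193386, with members on in both groups between them. In cluster 3, ZNF491 had 0 and 0 counts against 12 and 7, ZNF442 had 1 and 3 against 9 and 6, and ZNF439 had 1 and 11 against 0 and 2. ZNF235 of cluster 7 had 0 and 0 against 4 and 4, and ZNF419 of cluster 9 had 1 and 1 against 6 and 2. In cluster 9, ZNF211 had 6 and 10 counts in MET+ and 0 and 0 in MET-KO libraries, ZNF417 had 9 and 8 against 0 and 0, and ZNF814 had 7 and 1 against 0 and 1. Together with ZNF551, these 3 were the members of cluster 9 off in MET-KO cells only, and ZNF776, ZNF586, ZNF552 and ZNF587, which lie among them, were on in both groups. The groups overlapped for ZNF439, ZNF610 and ZNF320.

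**Figure D2:**
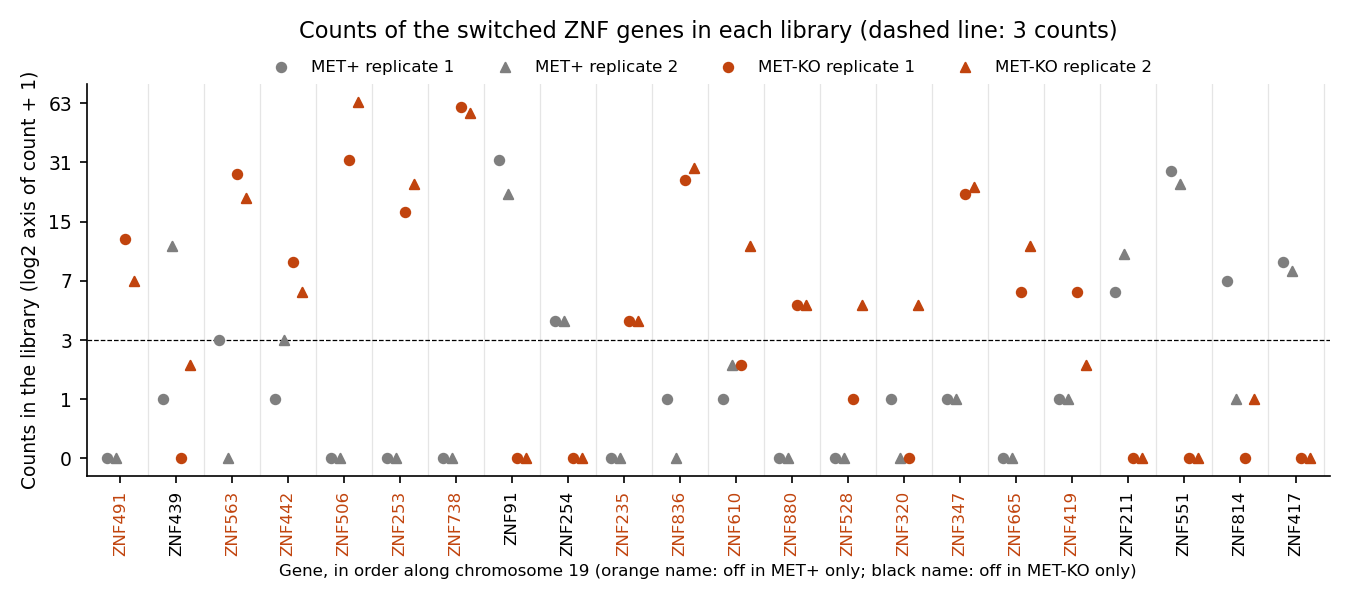
Counts of the 22 switched genes in each library (vertical axis, log2 scale of count plus 1), in order along chromosome 19, with MET+ libraries in grey and MET-KO libraries in orange. The 8 genes with at least 10 counts in both libraries of 1 group and at most 3 in both of the other stand apart from 14 genes that lie near the dashed line at 3 counts.

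The differential expression test asked how the members that were expressed differed between MET+ and MET-KO cells. Of the 240 genes, 110 were high enough to be tested, 8 of the 22 switched genes among them. By edgeR's quasi-likelihood test, with p adjusted over all genes and a threshold of 0.05, 45 members (40.9%) were called, against 54.1% of the 13801 tested genes. Of these, 28 (25.5%) were higher in MET-KO cells, against 27.2%, and 17 (15.5%) were lower, against 26.9%. The median log2 fold change of the tested members was 0.12 (quartiles -0.37 and 0.78), against 0.01 for all tested genes, -0.01 for the 691 other tested protein-coding genes of chromosome 19 and -0.03 for the 190 tested ZNF genes of other chromosomes, of which 37 were higher and 37 lower. The 8 switched genes passed the filter on low counts only through the group in which they were on, and among the 102 other tested members 22 were higher and 15 lower (36.3% called). The members had low levels, with a median log2 CPM of 2.33 against 4.20 for all tested genes. Among the 76 members under a log2 CPM of 3, 30 (39.5%) were called, against 46.3% of all genes below that level. Of the other 34 members 15 were called, against 54.1% of all tested genes at any level. The difference between members and other genes was not tested. The libraries of the groups did not overlap for 74 members (67.3%), against 75.6% of all tested genes, and for each of the 45 called ones. With 2 libraries per group, the smallest p that an exact two-sided permutation test of 1 gene can reach is 0.333, and the calls rest on a spread that edgeR estimates over many genes. Requiring at least 10 counts in every library left 88 members and 18 calls of higher expression, since 11 higher genes were no longer tested. Of these, 6 were the genes off in MET+ cells and the others were ZNF599, ZNF225, ZNF816, ZNF761 and ZNF17. Of the 17 lower members 8 fell by at least 1 on the log2 scale.

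**Figure D3:**
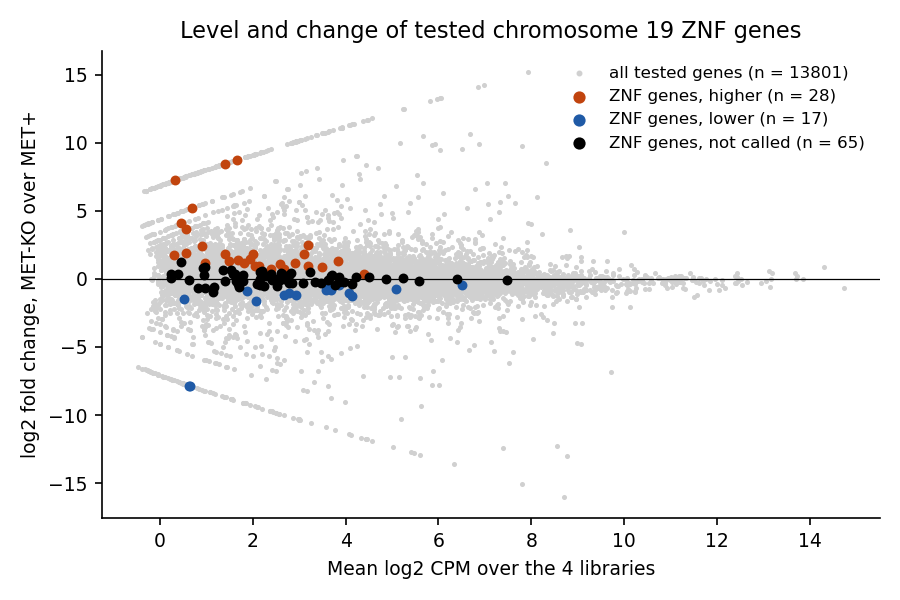
Log2 fold change of MET-KO over MET+ (vertical axis) against mean log2 CPM over the 4 libraries (horizontal axis) for 13801 tested genes in grey and the 110 tested ZNF genes of chromosome 19 in colour. The members lie to the left, at low levels, and the slanting rows at the edges are genes at 0 counts in 1 group, whose fitted fold change depends on the prior count.

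Cluster 8 held 8 of the 28 higher members. ZNF83 (ENSG00000167766, 52594060 to 52690496) went from 20 and 26 counts to 144 and 163, a log2 fold change of 2.51 (standard error 0.26, edgeR adjusted p = 3.95e-10). In the same cluster ZNF525 (10 and 19 against 68 and 54 counts) and ZNF761 (12 and 6 against 37 and 40) each rose by 1.85 on the log2 scale. ZNF28, ZNF816 and ZNF160 rose by 1.17, 1.17 and 1.12. In all, 8 of the 20 tested members of cluster 8 (40%) were called higher, against 27.2% of all tested genes. This count includes ZNF836 and ZNF347, switched genes that passed the filter on low counts only through the MET-KO group. ZNF615, at the start of the cluster, was its 1 lower member (15 and 19 against 7 and 7 counts, log2 fold change -1.49, edgeR adjusted p = 0.0207). The median of the 20 was 0.46, with ZNF836 and ZNF347 included, against 0.01 for all tested genes. Of the 20, 16 (80%) had a positive value, against 50.4%.

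Cluster 4 held changes in both directions within a short stretch. ZNF430 (164 and 286 against 98 and 122 counts, log2 fold change -1.24), ZNF714 (117 and 181 against 82 and 113, -0.83) and ZNF431 (110 and 176 against 79 and 121, -0.73) are neighbours between 21020620 and 21196053, and all 3 fell. In CPM the groups did not overlap for any of the 3, though the raw counts of ZNF431 did. Next to them lie ZNF708 (13 and 19 against 35 and 25 counts, not called), ZNF738, which was on in MET-KO cells only, and ZNF493 (13 and 13 against 23 and 54), which rose by 1.32. ZNF14 at the start of the cluster (16 and 19 against 45 and 49 counts) rose by 1.19. In all, 9 of the 12 tested members of this cluster were called, 5 higher and 4 lower, against 54.1% of all tested genes. These calls include ZNF506, ZNF253, ZNF738 and ZNF91, switched genes that passed the filter on low counts only through the group in which they were on. Of the 37 genes of the cluster, 24 were silent.

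In cluster 7 (43.53 to 45.08 Mb), ZNF225, ZNF226 and ZNF227, which lie between 44112181 and 44237268, all rose. ZNF226 went from 30 and 34 to 135 and 135 counts (log2 fold change 1.85, standard error 0.25, edgeR adjusted p = 1.07e-07), ZNF227 from 66 and 74 to 147 and 149 (0.85) and ZNF225 from 5 and 3 to 21 and 11 (1.75). ZNF283 of the cluster rose by 0.93, whereas ZNF575 at its first end and ZNF296 at its last fell by 1.15 and 0.59. In cluster 3, 5 of 12 tested members (41.7%) were called higher and 0 lower, against 27.2% and 26.9% of all tested genes. ZNF490, ZNF44, ZNF627 and ZNF791 rose by 0.38 to 0.94. The other was ZNF563, a switched gene that passed the filter only through the MET-KO group. Cluster 9 was mixed, with 4 of 26 tested members higher and 6 lower, the switched gene ZNF551 among the lower. ZNF17 (7 and 2 against 25 and 32 counts) rose by 2.40, a value that was 3.64 without the first MET+ library and 1.65 without the second. ZNF497 and ZNF837, side by side near the end of the chromosome, rose by 1.49 and 1.38. The fourth, ZNF552, rose by 0.98 and lies among the genes that were off in MET-KO cells only. At the other end of cluster 9, ZNF865, ZNF784, ZNF581 and ZNF787 were lower, with log2 fold changes of -1.04, -0.996, -0.42 and -0.73. Cluster 1, with 4 tested members, and cluster 6, with 3, held no call, and cluster 2 held 1 higher (ZNF561, 1.32) and 2 lower members (ZNF426, -0.80, and ZNF558, -0.87). ZNF599 was the 1 call in cluster 5 (2 and 7 against 19 and 22 counts, 1.94, or 1.42 and 2.94 when the first or the second MET+ library was left out), and among the 9 scattered members ZNF114 (-1.21) and ZNF574 (-0.47) fell.

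Of the 45 calls, 28 were kept in each of the 4 fits that left out 1 library. The other 17 were ZNF14, ZNF160, ZNF225, ZNF283, ZNF296, ZNF431, ZNF44, ZNF490, ZNF493, ZNF558, ZNF574, ZNF599, ZNF615, ZNF627, ZNF791, ZNF816 and ZNF837. All but ZNF225 and ZNF599 had changed by less than 1.5 on the log2 scale. Of the 17, 6 were lost without the first MET+ library, 9 without the second, and 12 without either MET-KO library. ZNF83, ZNF226, ZNF525, ZNF761, ZNF17, ZNF430 and ZNF714 were not among them.

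**Figure D4:**
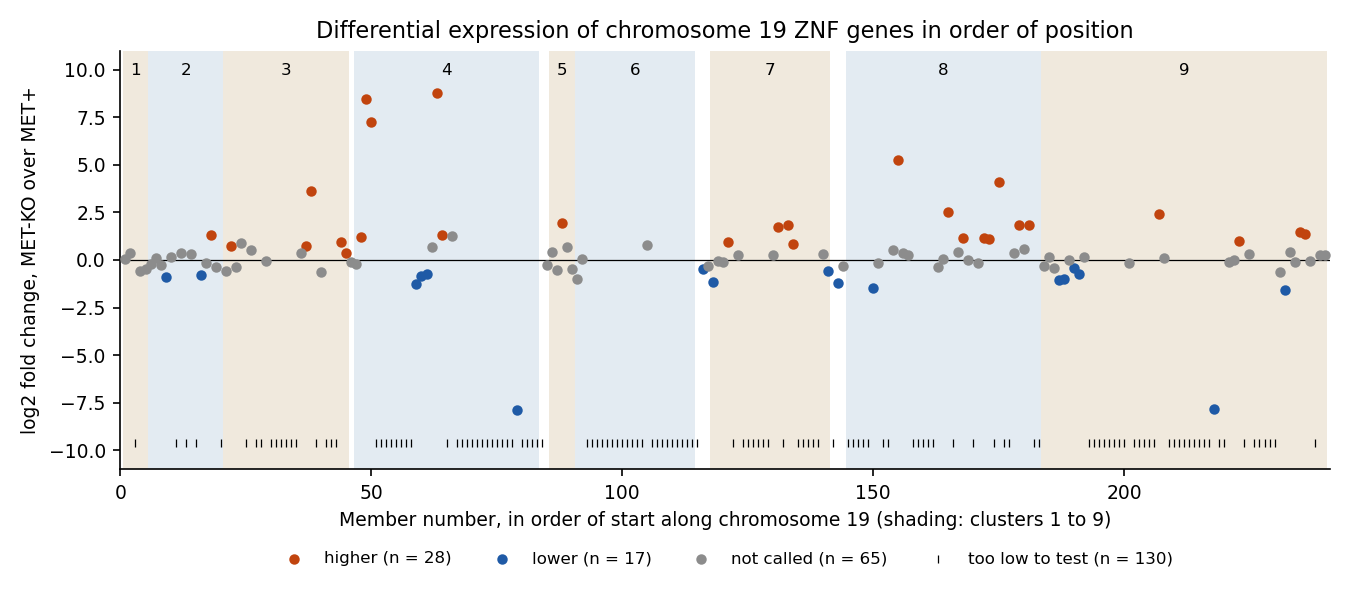
Log2 fold change of MET-KO over MET+ (vertical axis) for the 110 tested ZNF genes in order of start along chromosome 19 (horizontal axis, member number), with clusters 1 to 9 shaded and ticks at the bottom for the 130 members too low to test. Called genes in cluster 8 are nearly all higher, those of clusters 4 and 9 lie on both sides of 0, and cluster 6 is almost entirely ticks.

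Neighbouring members were compared pair by pair. Among 95 pairs of neighbouring tested members of a cluster, 15 had both genes called, and 14 of these (93.3%) were called the same way. The exception was the pair of ZNF253 and ZNF430, which lie more than 1 Mb apart with silent members between them. Among 690 neighbouring pairs of the other tested protein-coding genes of chromosome 19, 170 had both genes called and 100 of these (58.8%) the same way. When uncalled genes were included, the shares of pairs with the same sign were alike, at 53.7% of the 95 and 54.6% of the 690. The pairs are not independent, since a gene belongs to the pairs on both of its sides, and no test was made of them. Of the 14 pairs, 9 hold a gene whose call was lost when 1 library was left out, and 5 hold a switched gene. No pair overlaps on the same strand in the annotation, but ZNF791 lies within ZNF490 on the opposite strand, and ZNF714 shares 19 end words with ZNF431.

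The proteins were searched for fingers and for a KRAB core in the longest reading frame. At least 1 zinc finger was found in 239 members, with a median of 12 and up to 39 in ZNF729, which was silent here. The core pattern matched 172 of the 240 members, among them all 7 genes off in MET-KO cells only and 12 of the 15 off in MET+ cells only. The pattern misses divergent KRAB domains, since it matched 2 of the 24 members of cluster 7, where KRAB genes such as ZNF224 are known. Members without a match were therefore not compared as a set. The 5 members with the highest levels, ZNF428, ZNF581, ZNF146, ZNF121 and ZNF358, all had no match. ZNF428 stood at 182.8 ± 15.5 CPM against 171.1 ± 18.1 CPM in MET+ and MET-KO cells (SD, n = 2 each, log2 fold change -0.10, not called). Of the 5, ZNF581 was called, from 103.7 ± 5.27 to 77.2 ± 2.42 CPM (SD, n = 2 each, log2 fold change -0.42, edgeR adjusted p = 0.000525).

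Promoters were found in the RefSeq table for 209 of the 240 members, with no match for ZNF506, ZNF253 and ZNF738. The ETS core CCGGAAG, read on either strand, was more common in them than in other promoters of the same length. It occurred in 44.5% of the member promoters, in 37.5% of those of 192 ZNF genes of other chromosomes, in 13.7% of those of 930 other protein-coding genes of chromosome 19, in 14.4% of 14895 protein-coding promoters and in 10.7% of all 27326 promoters of the table. It was present in 39.4% of the promoters of members on in both groups and in 47.4% of those off in both, in 5 of the 19 silent members of cluster 6 with a promoter, in 5 of 10 off in MET+ cells only and 4 of 5 off in MET-KO cells only. The GC box GGGCGG occurred in 69.9% of member promoters, against 59.4% of protein-coding ones, and in 77.8% of members on in both groups, 61.1% of those off in both and 6 of the 19 silent members of cluster 6 with a promoter. Another 3 strings were searched in the same way, GCATGCGC (a core of NRF1 sites), AAGATGG (a core of YY1 sites) and CTCGCGAG. They occurred in 3.35%, 7.66% and 0.957% of member promoters and in 4.31%, 6.48% and 1.56% of protein-coding ones. The strings do not contain each other but may share end bases, and a match is a description of the letters, not evidence of binding.

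The count of CG dinucleotides, the sites of DNA methylation, overlapped widely between the states. The median was 20 per member promoter, against 22 for protein-coding genes. It was 22 for members on in both groups, 18 for those off in both, 19.5 for the 10 off in MET+ cells only and 12 for the 5 off in MET-KO cells only, with ranges that overlap. The silent members of cluster 6 had a median of 22 in 19 promoters, the same as the members that were on. Methylation itself was not measured in these libraries.

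**Figure D5:**
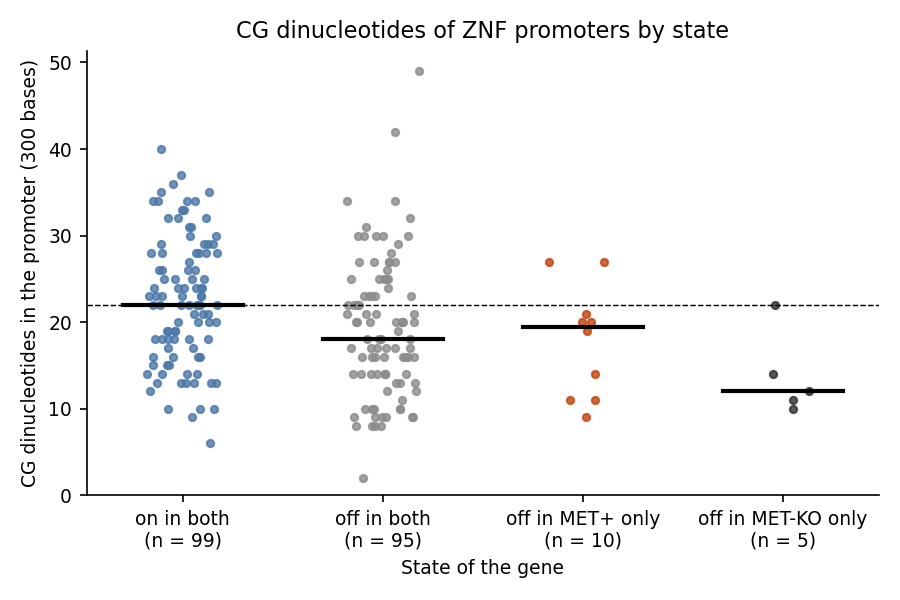
CG dinucleotides in the promoter of each matched ZNF gene of chromosome 19 (vertical axis), by on and off state, with 1 point per gene, a bar at the median and a dashed line at the median of protein-coding promoters. The medians are 22, 18, 19.5 and 12 from left to right, and the points of the 4 states overlap.

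The partners through which KRAB zinc finger proteins act were read from a list of 26 corepressor genes, all of them tested. By edgeR, 8 (30.8%) were higher in MET-KO cells, against 27.2% of all tested genes, 3 (11.5%) lower, against 26.9%, and 15 not called, with a median log2 fold change of 0.05 against 0.01 for all tested genes. TRIM28, the protein that KRAB binds, is itself on chromosome 19 and went from 169.5 ± 10.1 to 197.1 ± 10.5 CPM (SD, n = 2 each, log2 fold change 0.22, adjusted p = 0.0487). The HP1 genes CBX1, CBX3 and CBX5, whose proteins read methylated histone H3, rose by 0.48, 0.53 and 0.36. The histone deacetylase HDAC2 rose by 0.90, from 161.8 ± 1.15 to 300.9 ± 8.21 CPM (SD, n = 2 each), and UHRF1, ATRX and CHD3 rose by 0.83, 0.66 and 0.28. DNMT1, the maintenance DNA methyltransferase, fell by 0.56 (156.7 ± 3.85 to 106.1 ± 2.09 CPM, SD, n = 2 each), as did PPHLN1 by 0.31. SETDB1 was not called (24.7 ± 0.0601 against 19.6 ± 0.137 CPM, SD, n = 2 each, log2 fold change -0.33). CBX3 lies on chromosome 7, whose tested genes had a median log2 fold change of 0.50, and both PPHLN1 and CBX5, which moved in opposite directions, lie on chromosome 12, with a median of -0.32.

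Several members have known roles beyond ZNF91, and most of those picked here were silent in LoVo cells, as were 45.4% of all 240 members. They were picked by hand, so that this gives no share for members with known roles at large. ZNF93, which represses LINE-1 elements, had 0 counts in all 4 libraries, and so did ZNF382, ZNF582, ZNF671 and ZNF677, genes described as methylated in carcinomas. ZNF649 and ZNF350, whose protein binds BRCA1, were also at 0, ZNF331 had 0 and 0 counts in MET+ and 1 and 1 in MET-KO libraries, and ZNF568, whose mouse counterpart represses an Igf2 transcript, had 0 and 0 against 0 and 2. Of the members with known roles, 2 others were expressed. ZNF274, which brings SETDB1 to the 3' ends of zinc finger genes, fell from 51 and 61 counts (6.21 ± 0.0695 CPM, SD, n = 2) to 24 and 19 counts (2.05 ± 0.427 CPM, SD, n = 2), with a log2 fold change of -1.60 (standard error 0.34, edgeR adjusted p = 0.000165). ZNF808, needed for development of the pancreas, had 28 and 56 against 38 and 37 counts and was not called (log2 fold change -0.37).

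Duplicated genes can share reads. In 80 of the 240 members the last 500 bases of the transcript held at least 1 word of 50 bases that also occurs in a transcript of another gene. The sources used here do not say how reads with several matches were counted, so that the values of these members are uncertain. Among the genes named above, ZNF525, ZNF283, ZNF808, ZNF493, ZNF160 and ZNF114 had 103, 91, 86, 85, 84 and 64 such words of 451, ZNF558 had 42, ZNF83 39, ZNF816 29, ZNF28 10, ZNF91 32, ZNF714 19 (shared with ZNF431), ZNF761 18, ZNF253 16 (shared with ZNF486, which had 0 counts in every library), ZNF506 2 and ZNF563 1. Higher members of cluster 8 share words with each other, ZNF525 with ZNF160 and ZNF28, and ZNF761 with ZNF28 and ZNF525. Of the weaker switches, ZNF528 had 55 such words, ZNF610 5 and ZNF439 2 (shared with ZNF440). ZNF565 had 7 and ZNF44 1, and not every named gene is listed here. ZNF738, ZNF836, ZNF347, ZNF551, ZNF430, ZNF226 and ZNF274 had none. Among the 160 members with no shared word, 16 of the 73 tested (21.9%) were higher and 13 (17.8%) lower, against 27.2% and 26.9% of all tested genes. Of the 160, 8 (5%) were off in MET+ cells only and 3 (1.88%) in MET-KO cells only. Among all protein-coding genes these shares were 3.79% and 2.32%. In addition, 99 members overlap another gene on the same strand and 127 on the other, and the strand setting of the counting is not given in the sources used here.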

How the data were processed

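QuantSeq 3' mRNA FWD libraries of 2 MET+ and 2 MET-KO LoVo samples were used. The authors deposited raw whole-number counts per Ensembl gene for each sample, with no normalization, and 99 spike-in rows at 0. The submitters' processing notes name bcl2fastq, cutadapt 1.16, FastQC 0.11.7, MultiQC 1.5, STAR 2.5.4a, featureCounts 1.6.2, DESeq2 1.18.1 and GRCh38. The annotation, strand setting and handling of multi-mapped reads are not given in the sources used here.

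Depth ran from 8429142 to 10286552 counts per library, and intervals and floors cover counting error only, since PCR copies are not separated. Symbols and positions came from GENCODE version 29, which held 58552 of the 58825 IDs. Counts were tested over all genes in R 4.3.3 with edgeR 4.0.16 (filterByExpr by group, TMM, quasi-likelihood test, Benjamini-Hochberg adjustment, threshold 0.05), with the group as the only term. The tests were also run on simulated counts in which 200 of 13801 genes changed and all genes shared 1 spread. There edgeR recovered 182 of the 200 and called 8 unchanged genes, and DESeq2 recovered 157 and called 1. In the real data 54.1% of tested genes were called, so that these rates may not carry over. DESeq2 1.42.0 with its Wald test, other scalings, filters, off limits, cluster gaps, thinning and leaving out each library were alternatives. Zinc fingers (C-X2-4-C-X12-H-X3-5-H) and the KRAB core were searched in the translated longest reading frame.

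Named genes were the 10 members with the largest change in each direction among those called, every member with at most 3 counts in both libraries of 1 group and at least 10 in both of the other, the 5 highest members, the most changed of each cluster, 12 members with known roles and the corepressor list, of which 1 gene is not reported here by name. The 14 weaker switches and the other called members were named after their values were seen. The members and lists were chosen with earlier results of these data known. Plots were made with matplotlib 3.10.9 (Python 3.11.15).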

Additional observations from a re-analysis of the deposited data

How the results depend on the processing

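No called member named by the rule changed direction under an alternative that could test it. The counts of 28 higher and 17 lower members stayed within 1.5 times under DESeq2 size factors, library totals, no filter and thinning. They did so too when each library was left out and under DESeq2's Wald test, which gave 19 higher and 14 lower. Requiring at least 10 counts in every library gave 18 higher, and a limit of 1 on the size of the log2 fold change gave 8 lower, which follows from fewer or stricter calls. Leaving out members with a shared end word gave 16 higher (21.9%) and 13 lower (17.8%) of 73 tested. Of the 37 tested members with such a word, 12 (32.4%) were higher and 4 (10.8%) lower. This difference was not tested. Of the 45 calls, DESeq2's Wald test kept 29. The median log2 fold change of 0.12 was 0.22 with library totals, which moved the median of all genes to 0.11, and 0.24 with DESeq2, 0.24 with no filter, 0.058 with at least 10 counts in every library, 0.076 after thinning, 0.084 without members that share an end word and 0.072 to 0.16 when a library was left out. Deviations of same-numbered libraries correlated at -0.02, which gives no sign of pairing by replicate number. With so few libraries it cannot exclude pairing. With the replicate block the median was 0.15, with 26 members higher and 16 lower. No member was newly called, and ZNF558, ZNF791 and ZNF816 were no longer called.

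Genes off in MET+ cells only numbered 15, and 8 without members that share an end word (5%, against 3.79% of all protein-coding genes). Genes off in MET-KO cells only numbered 7, 14 when off meant 0 counts and 4 when it meant 10 counts or fewer. Without members that share an end word they numbered 3 (1.88%, against 2.32% of all protein-coding genes). The corepressor calls numbered 11, 7 by DESeq2 and 0 past that limit, alternatives chosen after seeing the data. With gaps of 0.5 and 2 Mb there were 10 and 6 clusters. Genes under 3 counts per library could not be told from silent ones at this depth, and 130 members were too low to test.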
